A study of Arabidopsis thaliana with 12 samples.

Results

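The comparison described here asks whether the effect of losing the kinase CDK8 on gene expression depends on whether the JAZ repressors are present. For each gene it takes the change from jazD to jazD cdk8-1 and subtracts the change from Col-0 to cdk8-1, both on the log2 scale, and this difference is called the interaction below. All 12 of 12 libraries entered it, and 19059 of 33323 loci had enough reads to be tested. A negative interaction means that cdk8-1 lowered a gene more, or raised it less, in jazD than with intact JAZ genes.

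The plants were Arabidopsis thaliana rosettes without roots, 25 days old, and each genotype had 3 libraries from separate pools of about 10 plants. Col-0 is the wild-type accession, and cdk8-1 carries a mutant allele of CDK8. The jazD line is a higher-order mutant known to carry mutations in JAZ1 to JAZ7, JAZ9, JAZ10 and JAZ13. The jazD cdk8-1 line carries these mutations and cdk8-1 together. The mutations were present from germination, so all values describe plants that developed with them.

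JAZ proteins hold back transcription factors such as MYC2 until the hormone jasmonate triggers their destruction, which releases genes of defence against insects and necrotrophic fungi. CDK8 is a kinase of the Mediator complex, which links transcription factors to RNA polymerase II and can either help or hinder the expression of a gene. In leaves the genes released by jasmonate include those of defensins, anti-insect proteins, glucosinolates (sulfur-containing defence compounds of the mustard family) and anthocyanins, while growth genes are usually lowered.

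CDK8 (AT5G63610) itself was lower in both mutant lines, at 17.4, 18.6 and 20.3 CPM in Col-0 and 2.29, 2.74 and 2.64 CPM in cdk8-1, against 21.1, 20.1 and 20.1 CPM in jazD and 2.73, 3.3 and 3.29 CPM in jazD cdk8-1. The groups with and without cdk8-1 did not overlap. Its fall was 7.32-fold with JAZ genes intact and 6.53-fold in jazD, with an interaction of 0.16 ± 0.16 (adjusted p = 0.556, edgeR). Some transcript remained in every library. Library totals ran from 17583467 to 21030374 expected counts. The 6 rosette leaf markers summed to between 40800 and 52600 CPM in every library, while 8 floral organ markers summed to between 0.688 and 2.51 CPM. The 7 root markers summed to between 0.599 and 3.16 CPM, 2 of them were at 0 throughout, and the highest sums were in jazD, where the nitrate transporter gene NRT2.1 was at 2.11 to 2.89 CPM. In whole rosettes, fewer cells of a type and less RNA per cell cannot be told apart.

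One library stood apart for a small set of genes, which bears on the largest interactions. Replicate 3 of cdk8-1 was more than 4-fold above both other cdk8-1 libraries at 6 genes, and 4 of these were the near-identical defensin genes PDF1.2a, PDF1.2b, PDF1.2c and PDF1.3. The others were AACT1 and AT3G01345. In no library did more than 6 genes lie that far above its partners, and replicate 2 of jazD also had 6. Results that rest on cdk8-1 replicate 3 are given with and without it.

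Across all genes the interaction was called at an adjusted p of 0.05 for 3154 genes, which is 16.5% of those tested. Of these, 1555 (8.16%) were higher and 1599 (8.39%) lower, and the median interaction over all genes was −0.0015. The typical called gene differed modestly, with a median absolute interaction of 0.45. Only 453 called genes reached 2-fold, of which 161 were higher and 292 lower. The split between higher and lower depended on the measure and its scaling. Higher genes made up 49.3% of calls on the log2 scale of counts. On log2 TPM they made up 59.7% with a pseudocount of 1 and 61.7% with a pseudocount of 0.1. These TPM values had no TMM scaling, and the median interaction over all genes was 0.05 and 0.06 with the respective pseudocounts. Higher genes made up 41% when CPM, divided by each gene's mean, was used without a log.

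The effect of cdk8-1 was called for 4853 genes (25.5%) with JAZ genes intact and for 6825 genes (35.8%) in jazD. The SD of the effect over all genes tested was 0.47 with JAZ genes intact and 0.63 in jazD. These 2 effects share no library, and across genes, which are not independent replicates, they had a Pearson r of 0.52. Among the 3154 interaction genes the largest class, 1505 genes or 47.7%, had a cdk8-1 effect called in jazD and none called with JAZ genes intact. A further 661 (21.0%) had an effect called with JAZ genes intact alone, and 386 (12.2%) had effects of one sign that were larger in jazD. Another 150 (4.76%) had effects of one sign that were larger with JAZ genes intact, and 131 (4.15%) had neither effect called. The last class, 321 genes or 10.2%, had effects of opposite sign. The interaction itself was the test of the difference in each case, so a gene whose effect was called in jazD alone is counted here only where the difference was also called.

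**Figure D1:**
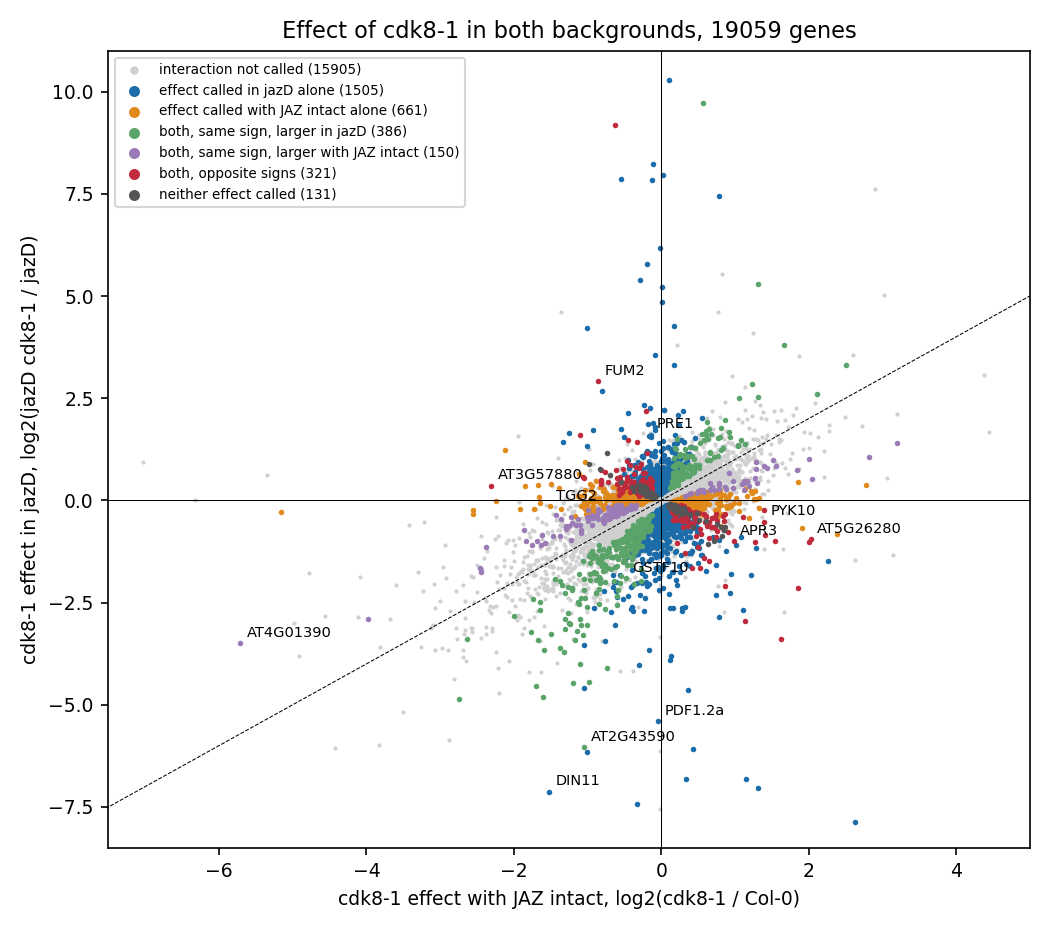
Log2 effect of cdk8-1 with JAZ genes intact (horizontal axis) and in jazD (vertical axis) for 19059 genes, coloured by class, with the dashed line marking equal effects. The 1505 genes called in jazD alone lie along the vertical axis, and the 321 genes with opposite signs lie in the upper left and lower right parts of the plot.

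Genes that respond to jasmonate together with ethylene had the most negative median interaction of the lists examined. This branch makes defensins, chitinases and other proteins that act against fungi. Of 10 members tested, 8 were called lower and none higher (80% called, against 16.5% of all genes). Their median was −2.13 against −0.0015 over all genes. In jazD the cdk8-1 effect was called lower for all 10 (median −3.56), while with JAZ genes intact it was called lower for 4 and higher for none (median −0.22). All 4 of the defensin copies were among the 8, and without cdk8-1 replicate 3 the count called lower fell to 4 and the median was −1.80. DESeq2, which gave no adjusted p for PDF1.2a, PDF1.2c and PDF1.3, called 5 lower, as did limma on TPM with a pseudocount of 0.1. Some members lie in a chromosome 5 interval described further below. With that interval left out, 7 of 8 were called lower, with a median of −3.87.

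PDF1.2a (AT5G44420), which encodes the defensin long used as a marker of this branch, was at 5.66, 4.21 and 1.65 CPM in Col-0 and 0.249, 0.413 and 10.2 CPM in cdk8-1, against 2092, 2238 and 2208 CPM in jazD and 50.6, 62.3 and 41.6 CPM in jazD cdk8-1. The jazD libraries were far above all others, and jazD cdk8-1 was above both genotypes with intact JAZ genes. In cdk8-1 the first 2 libraries were below every Col-0 library, while replicate 3 was above them. PDF1.2a fell 42.3-fold in jazD cdk8-1 relative to jazD, and its interaction was −5.37 ± 0.77 (adjusted p = 4.88e-05, edgeR). Without cdk8-1 replicate 3 the interaction was −1.90 (adjusted p = 0.254, edgeR) and the cdk8-1 effect with JAZ genes intact was −3.51 rather than −0.04. The call of PDF1.2a was therefore lost without that library.

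PDF1.3 (AT2G26010) gave the same pattern at 2.18, 1.5 and 0.85 CPM in Col-0 and 0.0499, 0.155 and 10.7 CPM in cdk8-1, against 2686, 2994 and 2720 CPM in jazD and 34.3, 13.4 and 17.7 CPM in jazD cdk8-1. Its interaction was −8.34 ± 1.04 with all libraries and −3.22 without cdk8-1 replicate 3 (adjusted p = 0.493, edgeR). PDF1.2b went from −7.14 ± 0.97 to −3.16 (adjusted p = 0.384, edgeR) and PDF1.2c from −7.98 ± 0.96 to −4.72 (adjusted p = 0.0576, edgeR). The split of reads among these 4 copies depends on how they were divided at counting. The fall within jazD does not use the cdk8-1 libraries, and it was 112-fold for PDF1.2b and 131-fold for PDF1.3. PDF1.2b and PDF1.3 lie side by side on chromosome 2, and PDF1.2a and PDF1.2c on chromosome 5.

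CHIB (AT3G12500), a basic chitinase gene, was at 3.79, 4.06 and 4.1 CPM in Col-0 and 1.25, 1.71 and 1.82 CPM in cdk8-1, against 50.9, 64.6 and 47.7 CPM in jazD and 3.73, 4.59 and 4.17 CPM in jazD cdk8-1. Only jazD stood apart from Col-0 upwards, and the level in jazD cdk8-1 overlapped that in Col-0. The cdk8-1 effect was −1.32 ± 0.2 with JAZ genes intact and −3.7 ± 0.12 in jazD, an interaction of −2.38 ± 0.26 (adjusted p = 1.53e-06, edgeR). It stayed between −2.53 and −2.25 when single libraries were left out. ORA59, the transcription factor gene of the branch, and PR4, which encodes a chitin-binding protein, were picked from the list after their values were seen. ORA59 had effects of −0.02 and −1.91 (interaction −1.88, adjusted p = 5.77e-05, edgeR), and PR4 had −1.67 and −3.41 (interaction −1.74, adjusted p = 9.5e-06, edgeR). The genes of the transcription factors ERF5 and ERF6 were the 2 members not called, with interactions of −0.12 ± 0.48 and 0.2 ± 0.3.

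The PDF1.2a promoter is shown because ORA59 and related factors of this branch are known to bind the GC-rich element named the GCC box. In stretches of the same length, PDF1.2b also held this element, whereas PDF1.2c, PDF1.3 and CHIB did not. The 250 bases before the annotated start of PDF1.2a lie at chr5:17907639-17907888 on the minus strand (RefSeq, TAIR10.1), and the GCC box (GCCGCC, on either strand) is in capitals, starting 222 bases before the gene.
PDF1.2a: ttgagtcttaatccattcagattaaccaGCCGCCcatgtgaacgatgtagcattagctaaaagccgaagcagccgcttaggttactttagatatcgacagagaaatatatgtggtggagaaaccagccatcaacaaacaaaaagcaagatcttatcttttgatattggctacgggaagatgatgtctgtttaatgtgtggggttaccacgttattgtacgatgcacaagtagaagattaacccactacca

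Among the 3154 called genes, 27 outside a chromosome 5 interval described further below had negative interactions of at least 8-fold, against 4 with positive ones. Of the 27, 22 stayed called in the same direction without cdk8-1 replicate 3, and between 25 and 27 did so without any other single library. The 10 largest whose log2 CPM averaged at least 1 were the 4 defensins, AACT1, DIN11, AT4G16260, AT2G43590, NRT2.6 and CYP72A14.

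AT2G43590, which encodes a protein of the chitinase family, was at 7.99, 11.2 and 9.9 CPM in Col-0 and 2.69, 3.72 and 7.59 CPM in cdk8-1, against 662, 752 and 626 CPM in jazD and 13.8, 7.13 and 10.4 CPM in jazD cdk8-1. The jazD libraries were far above all others, and jazD cdk8-1 overlapped Col-0. Expression fell 65.8-fold in jazD and 2.06-fold with JAZ genes intact, an interaction of −5.0 ± 0.35 (adjusted p = 1.76e-09, edgeR). Leaving out single libraries moved this between −5.28 and −4.44.

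AT4G16260, annotated as a glycosyl hydrolase, was at 3.17, 3.61 and 1.65 CPM in Col-0 and 0.699, 0.569 and 2.83 CPM in cdk8-1, against 575, 633 and 560 CPM in jazD and 11, 6.46 and 7.64 CPM in jazD cdk8-1. The jazD libraries again stood far above the rest, and the interaction was −5.15 ± 0.56 (adjusted p = 1.13e-06, edgeR). Without cdk8-1 replicate 3 it was −4.03 (adjusted p = 0.000379, edgeR). DIN11 (AT3G49620), a gene for an oxygenase dependent on 2-oxoglutarate and iron that is named for its induction in the dark, was at 0.726, 1.46 and 0.7 CPM in Col-0 and 0.0499, 0.362 and 0.576 CPM in cdk8-1, against 115, 151 and 117 CPM in jazD and 1.5, 0.526 and 0.787 CPM in jazD cdk8-1. The 3 jazD libraries were far above the other 9, among which jazD cdk8-1 overlapped both Col-0 and cdk8-1. Its cdk8-1 effect was −7.12 ± 0.19 in jazD, a 139-fold fall, against −1.52 ± 0.57 with JAZ genes intact (adjusted p = 0.0553, edgeR). The interaction of DIN11 was −5.61 ± 0.89 (adjusted p = 0.000146, edgeR), and −4.91 without cdk8-1 replicate 3 (adjusted p = 0.0127, edgeR).

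The stretch of 250 bases before DIN11, at chr3:18393497-18393746 on the plus strand (RefSeq, TAIR10.1), is shown with its G-box (CACGTG, which reads the same on both strands) in capitals, 227 bases before the gene. The G-box is the element bound by MYC2 and related factors. None of the other genes named above among the largest negative interactions held a G-box in a stretch of the same length.
DIN11: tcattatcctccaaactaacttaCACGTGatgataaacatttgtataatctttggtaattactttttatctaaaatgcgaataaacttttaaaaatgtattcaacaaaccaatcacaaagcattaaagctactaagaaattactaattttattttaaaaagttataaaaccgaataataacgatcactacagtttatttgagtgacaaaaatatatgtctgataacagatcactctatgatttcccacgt

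AACT1 (AT5G61160), which encodes an acyltransferase that makes hydroxycinnamate amides, was at 0.208, 0.953 and 0.45 CPM in Col-0 and 0, 0 and 2.11 CPM in cdk8-1, against 406, 451 and 410 CPM in jazD and 8.73, 4.64 and 5.46 CPM in jazD cdk8-1. The jazD libraries were far above all others, jazD cdk8-1 was above both genotypes with intact JAZ genes, and reads were found in 1 of the 3 cdk8-1 libraries. The interaction of AACT1 was −6.52 ± 1.05 with all libraries, and its call rests on cdk8-1 replicate 3. Without that library the fit gave 0.32 (adjusted p = 0.804, edgeR). Both cdk8-1 libraries left there had 0 CPM, so neither the size nor the sign of that value is a reliable estimate. In jazD cdk8-1 the gene was 68.3-fold below jazD. NRT2.6, a nitrate transporter gene, and CYP72A14, a cytochrome P450 gene, had interactions of −4.04 ± 0.78 and −3.94 ± 0.59 and stayed called in every left-out fit. That of CYP72A14 was −4.61 without Col-0 replicate 2.

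**Figure D2:**
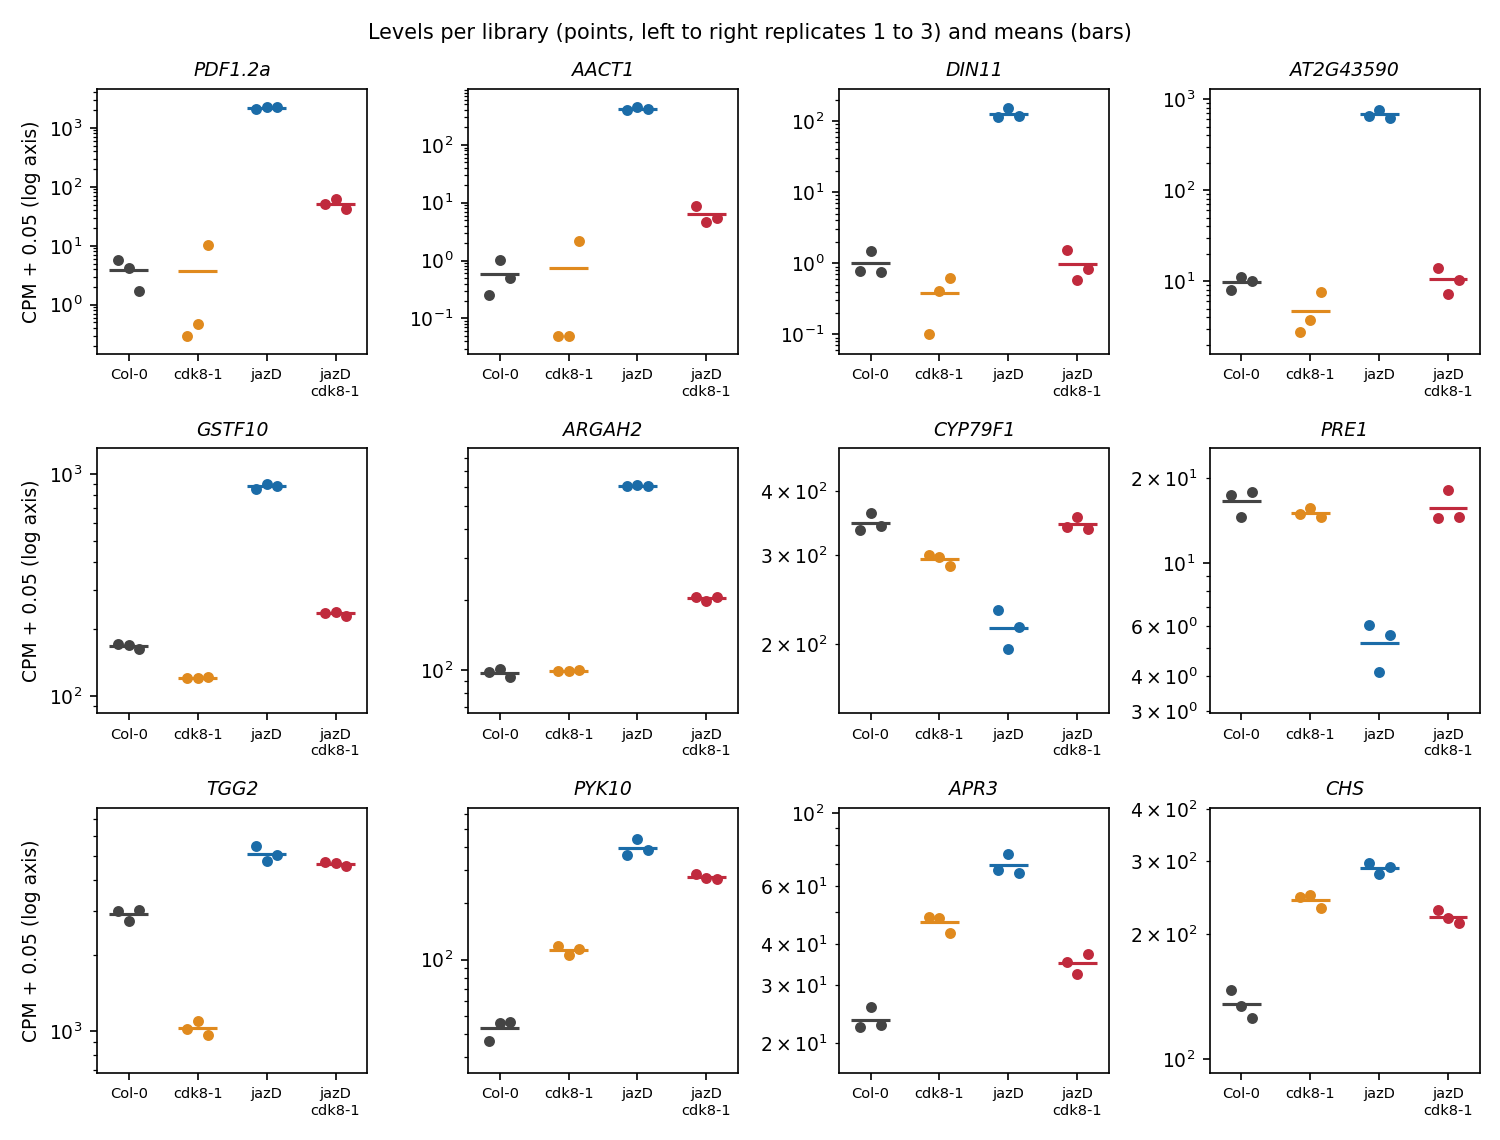
Levels of 12 genes in each library, as CPM plus 0.05 on a log axis, with a point per library and a bar at the mean of 3. DIN11 and AT2G43590 are high in jazD alone, PDF1.2a and AACT1 have 1 high library in cdk8-1, TGG2 falls in cdk8-1 with no called change from jazD to jazD cdk8-1, and APR3, PYK10 and CHS rise in cdk8-1 and fall in jazD cdk8-1.

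The core of jasmonate signalling showed smaller interactions, mostly negative. Of 15 genes of jasmonate synthesis tested, 9 were called lower and none higher (60% called, against 16.5% of all genes). Their median interaction was −0.30. Their cdk8-1 effect had a median of 0.02 with JAZ genes intact and of −0.47 in jazD. AOS (AT5G42650), the allene oxide synthase gene, was at 262, 251 and 273 CPM in Col-0 and 254, 268 and 279 CPM in cdk8-1, against 1020, 997 and 1028 CPM in jazD and 718, 744 and 737 CPM in jazD cdk8-1. Col-0 and cdk8-1 overlapped, and jazD cdk8-1 lay between them and jazD. The interaction of AOS was −0.5 ± 0.06 (adjusted p = 9.12e-06, edgeR). AOC1 (−0.64 ± 0.08) and AOC2 (−0.73 ± 0.07), allene oxide cyclase genes, moved the same way, and as near copies they share uncertainty in their counts. OPR3, the reductase gene of the pathway's peroxisomal step, was a sign switch, with effects of 0.22 ± 0.05 and −0.18 ± 0.05.

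Of 11 JAZ genes tested, 6 were called lower and 1 higher (63.6% called, against 16.5% of all genes), with a median of −0.41. Several are mutated in jazD, so the cdk8-1 effect in jazD there concerns transcripts of mutant alleles. JAZ10 (AT5G13220) was at 2.23, 1.61 and 2.4 CPM in Col-0 and 2, 1.86 and 2.16 CPM in cdk8-1, against 8.71, 11.7 and 7.58 CPM in jazD and 3.39, 2.97 and 2.78 CPM in jazD cdk8-1. The jazD libraries were highest, jazD cdk8-1 lay between them and the other genotypes, and the interaction was −1.58 ± 0.28 (adjusted p = 0.000373, edgeR). JAZ9 (−0.51 ± 0.07) and JAZ3 (−0.41 ± 0.09) had smaller negative values. JAZ1, the member called higher, had cdk8-1 effects of −0.87 with JAZ genes intact and −0.00287 in jazD. JAZ8, which is intact in jazD and encodes a JAZ protein that resists degradation, had an interaction of −2.75 ± 0.81 (adjusted p = 0.0235, edgeR). JAZ1 and JAZ8 were picked after their values were seen.

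Of 9 genes for jasmonate transcription factors and corepressors, 2 were called (22.2%, against 16.5% of all genes tested). MYC4, the gene of a MYC2 relative, was higher (0.38 ± 0.09), and NINJA, which encodes the adaptor that ties JAZ proteins to corepressors, was a sign switch with effects of 0.23 ± 0.05 and −0.13 ± 0.05. MYC2 had an interaction of 0.02 ± 0.1 (adjusted p = 0.909, edgeR), with cdk8-1 effects of −0.33 and −0.3. Of 5 genes for jasmonate turnover, 3 were called lower and 1 higher (80% called, against 16.5% of all genes). Without cdk8-1 replicate 2 the count called lower was 1. The lower ones included IAR3, an amidohydrolase gene (−0.65 ± 0.09), and CYP94B1, a jasmonate hydroxylase gene (−2.11 ± 0.57, with a call lost without cdk8-1 replicate 2, adjusted p = 0.0564, edgeR). ILL6, another amidohydrolase gene, was higher on the log2 scale (0.74 ± 0.12), but its interaction without a log was −0.07 of its mean CPM (adjusted p = 0.542, limma).

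Genes of the wound response and of defence against insects were mostly lowered by cdk8-1 in both backgrounds, and 7 of 12 more so in jazD. For the interaction these 7 were called lower and 1 was called higher (66.7% called, against 16.5% of all genes), with a median of −0.38. Without cdk8-1 replicate 3, 5 were called lower and 1 higher, with a median of −0.285. With JAZ genes intact the cdk8-1 effect was called lower for 10 and higher for none (median −0.81), and in jazD for all 12 (median −2.02). ARGAH2 (AT4G08870), an arginase gene that starves insects of arginine, was at 98.1, 101 and 94 CPM in Col-0 and 99, 99.1 and 100 CPM in cdk8-1, against 609, 613 and 605 CPM in jazD and 205, 197 and 206 CPM in jazD cdk8-1. Col-0 and cdk8-1 were level to within the spread of their libraries, while jazD cdk8-1 lay well below jazD and above both. Its cdk8-1 effects were 0.03 ± 0.04 (adjusted p = 0.695, edgeR) and −1.59 ± 0.04, and the interaction was −1.61 ± 0.06 (adjusted p = 3.98e-14, edgeR).

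JAL35 (AT3G16470), a jacalin-related lectin gene, was at 73.4, 68.4 and 80.2 CPM in Col-0 and 57.7, 57.5 and 56.7 CPM in cdk8-1, against 789, 820 and 823 CPM in jazD and 196, 183 and 212 CPM in jazD cdk8-1. It fell in both backgrounds, 1.29-fold and 4.12-fold, with an interaction of −1.67 ± 0.08. NATA1 (AT2G39030), which encodes an acetyltransferase that makes acetylornithine, was at 4.77, 3.76 and 2.85 CPM in Col-0 and 0.2, 0.724 and 2.5 CPM in cdk8-1, against 252, 254 and 248 CPM in jazD and 11, 9.14 and 12.1 CPM in jazD cdk8-1. Replicate 3 of cdk8-1 was again the highest of its group. The interaction of NATA1 was −2.85 ± 0.48 with all libraries and −1.52 without that one (adjusted p = 0.0583, edgeR). The vegetative storage protein genes VSP1 (−1.38) and VSP2 (−0.72) were also among the lower members, and ESM1, a specifier-modifying gene, was the higher one (0.33). These last 3 were chosen after their values were seen.

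Indole glucosinolates and the tryptophan pathway that feeds them had mainly negative interactions. Of 18 indole glucosinolate genes, 11 were called lower and 2 higher (72.2% called, against 16.5% of all genes), with a median of −0.49. In jazD the cdk8-1 effect was called lower for 14 and higher for 1, against 8 lower and 4 higher with JAZ genes intact. Of 8 tryptophan genes, 6 were called lower and none higher (75% called, against 16.5% of all genes), with a median of −0.70.

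GSTF10 (AT2G30870), which encodes a glutathione transferase assigned to glucosinolate synthesis, was at 171, 169 and 162 CPM in Col-0 and 120, 120 and 121 CPM in cdk8-1, against 858, 906 and 879 CPM in jazD and 237, 238 and 230 CPM in jazD cdk8-1. The 4 genotypes did not overlap, and the fall from jazD to jazD cdk8-1 was 3.75-fold against 1.39-fold from Col-0 to cdk8-1. The interaction of GSTF10 was −1.43 ± 0.06 (adjusted p = 2.82e-13, edgeR). CYP79B3 (AT2G22330), whose enzyme starts the pathway from tryptophan, was at 44.2, 49.4 and 44.3 CPM in Col-0 and 49.8, 47.1 and 47.2 CPM in cdk8-1, against 181, 184 and 182 CPM in jazD and 88.8, 101 and 101 CPM in jazD cdk8-1. Only the jazD background showed a called cdk8-1 effect for it, at −0.91 ± 0.05. IGMT5 (AT1G76790), a methyltransferase gene that decorates the indole ring, was at 5.81, 4.17 and 6.35 CPM in Col-0 and 3.34, 3.36 and 5.57 CPM in cdk8-1, against 107, 116 and 112 CPM in jazD and 17.8, 18 and 19.2 CPM in jazD cdk8-1, with an interaction of −2.2 ± 0.2 (adjusted p = 7.54e-08, edgeR). The sign switches of this list were GSTF9 (0.2 and −0.33), GGP1 (0.13 and −0.21) and SOT16 (0.23 and −0.21), where the first value is the effect with JAZ genes intact. CYP81F1 (0.47) and CYP81F3 (0.97), ring hydroxylase genes, were the members called higher.

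In tryptophan synthesis, TSA1 (AT3G54640), the gene of the synthase alpha subunit, was at 48.8, 50.5 and 45 CPM in Col-0 and 54, 57.7 and 55.5 CPM in cdk8-1, against 142, 165 and 139 CPM in jazD and 69.9, 73 and 72.9 CPM in jazD cdk8-1. Most of the jazD excess was missing in jazD cdk8-1, while cdk8-1 lay slightly above Col-0. The effects were 0.21 ± 0.06 and −1.05 ± 0.06, a sign switch. TSB1, the gene of the beta subunit, had an interaction of −1.27 ± 0.07 and lies in the chromosome 5 interval, and PAT1, an early gene of the pathway, had −0.75 ± 0.07. TSB2, a second beta subunit gene, was also a sign switch (0.26 and −0.26).

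Aliphatic glucosinolate genes moved the other way. These make glucosinolates from methionine rather than tryptophan. Of 18 tested, 13 were called higher and none lower (72.2% called, against 16.5% of all genes). All 18 interactions were above 0, between 0.12 and 1.2 with a median of 0.40. With JAZ genes intact cdk8-1 lowered 11 and raised 5 (median −0.22), and in jazD it lowered 2 and raised 9 (median 0.18). CYP79F1 (AT1G16410), whose enzyme starts the pathway, was at 336, 362 and 342 CPM in Col-0 and 300, 297 and 285 CPM in cdk8-1, against 234, 196 and 216 CPM in jazD and 340, 355 and 338 CPM in jazD cdk8-1. Among these, jazD was lowest, and jazD cdk8-1 overlapped Col-0. The effects were −0.24 ± 0.05 and 0.68 ± 0.05, and the interaction was 0.92 ± 0.07 (adjusted p = 1.68e-08, edgeR).

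FMOGS-OX3 (AT1G62560), a monooxygenase gene of the side chain, was at 69.7, 68 and 68.3 CPM in Col-0 and 57, 55.9 and 57.4 CPM in cdk8-1, against 39.9, 36.6 and 42 CPM in jazD and 53.8, 56.8 and 54.1 CPM in jazD cdk8-1. It was another sign switch, as were BCAT4 (−0.2 and 0.2), which encodes an aminotransferase of the methionine route, and the transporter gene BAT5 (−0.25 and 0.2). CYP83A1, the second core enzyme, fell in both backgrounds, at −0.66 ± 0.05 with JAZ genes intact and −0.23 ± 0.05 in jazD. The regulators MYB28 (0.24) and MYB29 (0.63), chosen after their values were seen, were among the genes called higher.

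Enzymes and proteins that act on glucosinolates split. Of 10 genes tested for ER bodies (beta-glucosidase stores of the endoplasmic reticulum), specifier proteins and myrosinases, 2 were called higher and 5 lower. That is 70% called, against 16.5% of all genes. TGG2 (AT5G25980), a myrosinase gene, was at 2994, 2749 and 3024 CPM in Col-0 and 1016, 1093 and 966 CPM in cdk8-1, against 5458, 4763 and 5046 CPM in jazD and 4705, 4656 and 4549 CPM in jazD cdk8-1. In cdk8-1 it was below all Col-0 libraries, a 2.85-fold fall, while the ranges of jazD and jazD cdk8-1 nearly met, with an effect of −0.13 ± 0.06 (adjusted p = 0.0673, edgeR). The interaction was 1.38 ± 0.08 (adjusted p = 6.99e-11, edgeR). TGG1, the other leaf myrosinase gene, rose with cdk8-1 in both backgrounds (0.36 and 0.79).

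PYK10 (AT3G09260), a beta-glucosidase gene of ER bodies, was at 36.5, 45.9 and 46.2 CPM in Col-0 and 118, 106 and 114 CPM in cdk8-1, against 362, 438 and 385 CPM in jazD and 285, 271 and 270 CPM in jazD cdk8-1. The gene rose 2.63-fold in cdk8-1 and fell 1.43-fold in jazD cdk8-1, and none of the groups overlapped. NSP1 (AT3G16400), a nitrile specifier gene, was at 67.7, 71.3 and 68.6 CPM in Col-0 and 162, 148 and 140 CPM in cdk8-1, against 513, 551 and 523 CPM in jazD and 398, 388 and 403 CPM in jazD cdk8-1. It switched in the same way, 1.11 ± 0.05 against −0.42 ± 0.05. NAI2, whose protein is needed to form ER bodies, had effects of 0.5 and −1.15.

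Sulfate assimilation, which supplies the sulfur of glucosinolates, had 7 of 11 tested genes called lower and none higher (63.6% called, against 16.5% of all genes). Their median interaction was −0.63. The median was −0.42 without Col-0 replicate 1 and −0.41 without jazD replicate 2 or 3, and −0.30 with TPM and a pseudocount of 1. The count called lower was 5 without cdk8-1 replicate 1 or 2 or jazD cdk8-1 replicate 3. With the chromosome 5 interval left out, 6 of 10 were called lower, with a median of −0.51. The median cdk8-1 effect was 0.26 with JAZ genes intact and −0.43 in jazD. APR3 (AT4G21990), which encodes a reductase of activated sulfate, was at 22.4, 25.6 and 22.6 CPM in Col-0 and 48.3, 47.9 and 43.1 CPM in cdk8-1, against 67.2, 75 and 65.9 CPM in jazD and 35.3, 32.4 and 37.3 CPM in jazD cdk8-1. The order of the genotypes was Col-0, jazD cdk8-1, cdk8-1 and jazD, without overlap. Its effects were nearly equal and opposite, 0.98 ± 0.07 and −0.99 ± 0.07, with an interaction of −1.97 ± 0.1 (adjusted p = 9.93e-12, edgeR). APR1, a close relative, had an interaction of −0.63 ± 0.09 with effects of −0.02 and −0.65, and APS1, the sulfurylase gene, had −0.32 ± 0.06.

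Flavonoid and anthocyanin genes held more sign switches than any other list here. Of 19 tested, 12 were called lower and 1 higher (68.4% called, against 16.5% of all genes), with a median of −0.73. Of the 19, 7 switched sign, against 1.68% of all genes tested. With JAZ genes intact cdk8-1 raised 12 and lowered 1 (median 0.65), whereas in jazD it raised 3 and lowered 9 (median −0.19). CHS (AT5G13930), which encodes chalcone synthase, the entry enzyme, was at 146, 134 and 126 CPM in Col-0 and 246, 249 and 232 CPM in cdk8-1, against 297, 279 and 291 CPM in jazD and 228, 219 and 213 CPM in jazD cdk8-1. The cdk8-1 libraries lay above Col-0 and the jazD cdk8-1 libraries below jazD, and cdk8-1 and jazD cdk8-1 stood close to each other. CHS had effects of 0.84 ± 0.05 and −0.39 ± 0.05, with an interaction of −1.23 ± 0.07 (adjusted p = 9e-11, edgeR).

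LDOX (AT4G22880), a gene of the late anthocyanin steps, was at 6.59, 7.12 and 6.8 CPM in Col-0 and 12.5, 9.72 and 9.89 CPM in cdk8-1, against 51.1, 49.6 and 49.6 CPM in jazD and 28.1, 23.8 and 27.4 CPM in jazD cdk8-1. Its interaction was −1.57 ± 0.13, from effects of 0.65 ± 0.1 with JAZ genes intact and −0.92 ± 0.07 in jazD. The other switches were F3'H (0.74 and −0.33), DFR (0.73 and −0.41), UGT78D2 (0.45 and −0.28), 5MAT (0.63 and −0.62) and UGT79B1 (0.73 and −0.67), and UGT79B1 lies in the chromosome 5 interval. F3H, a middle step, was called higher only with JAZ genes intact, with an interaction of −1.07 ± 0.11. FLS1, which diverts the pathway to flavonols, rose in both backgrounds (1.52 and 1.0). PAP1, the gene of a MYB activator of anthocyanin synthesis, was the member called higher (0.66). Its call was lost without Col-0 replicate 1, cdk8-1 replicate 1, jazD replicate 2 or 3, or jazD cdk8-1 replicate 2 or 3. DESeq2 also called no member higher. FLS1 and PAP1 were chosen after their values were seen.

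**Figure D3:**
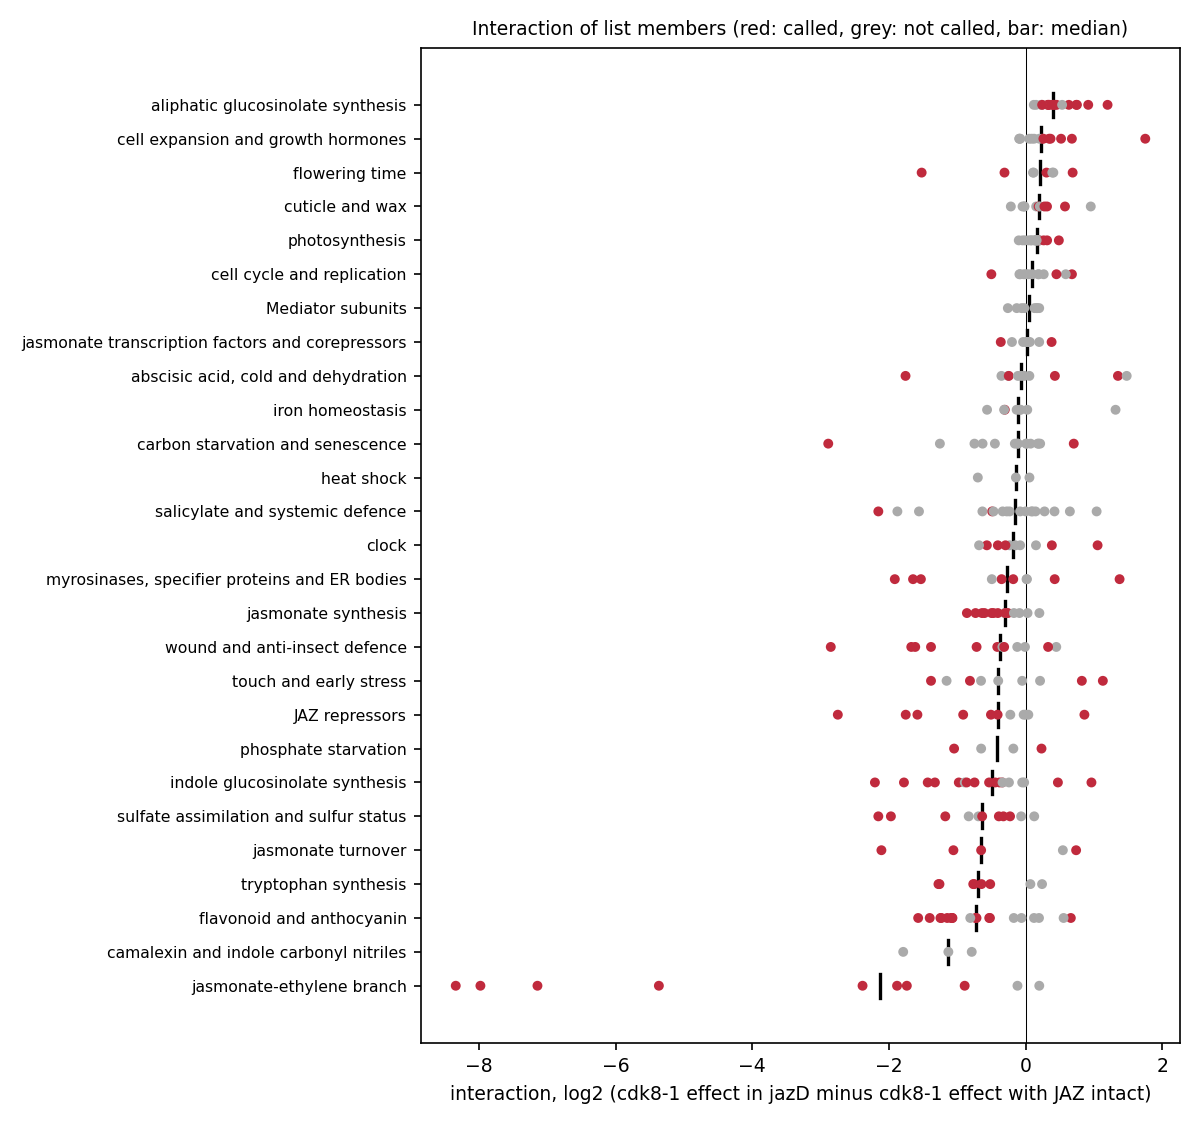
Interaction of the tested members of 27 gene lists on the log2 scale, with a point per gene (red where called, grey where not) and a bar at each list's median. Medians run from −2.13 for the jasmonate-ethylene branch to 0.40 for aliphatic glucosinolate synthesis.

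Sign switches across the whole genome numbered 321, or 1.68% of genes tested. In 169 of them cdk8-1 lowered the gene with JAZ genes intact and raised it in jazD, and in 152 the reverse held. Most of these switches were small. The median of the smaller of the 2 effects was 0.23, both effects reached 1.5-fold in 25 genes, and both reached 2-fold in 6. Leaving out single libraries gave between 230 and 305 switches. With TPM and a pseudocount of 1, 129 of the 321 were also switches.

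AT3G20370, annotated as a TRAF-like protein, was at 0.882, 0.502 and 0.8 CPM in Col-0 and 3.04, 2.84 and 2.93 CPM in cdk8-1, against 24.8, 28.1 and 25.1 CPM in jazD and 12.4, 14.4 and 11.5 CPM in jazD cdk8-1. No groups overlapped. It rose 4.02-fold in cdk8-1 and fell 2.04-fold in jazD cdk8-1, with an interaction of −3.04 ± 0.23 (adjusted p = 4.72e-09, edgeR). AT5G26280, also TRAF-like, was at 1.19, 1.15 and 1.9 CPM in Col-0 and 5.14, 6.31 and 5.96 CPM in cdk8-1, against 22.7, 24.2 and 24.4 CPM in jazD and 12.6, 12.6 and 11.7 CPM in jazD cdk8-1, and showed the same order of genotypes with effects of 2.03 ± 0.16 and −0.95 ± 0.09. JAL33 (AT3G16450), a lectin gene, was at 1.14, 1.56 and 1.9 CPM in Col-0 and 3.94, 3.72 and 3.55 CPM in cdk8-1, against 22.8, 25.6 and 24.9 CPM in jazD and 13.1, 11.8 and 11.3 CPM in jazD cdk8-1. Its rise in cdk8-1 was 2.43-fold and its fall in jazD cdk8-1 was 2.03-fold.

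SAG21 (AT4G02380), a gene induced in senescence and stress, was at 8.25, 8.28 and 7.15 CPM in Col-0 and 13, 15 and 15 CPM in cdk8-1, against 51.1, 80.9 and 43.1 CPM in jazD and 13.1, 11.9 and 15.9 CPM in jazD cdk8-1. The jazD libraries were spread between 43.1 and 80.9 CPM, and jazD cdk8-1 overlapped cdk8-1. SAG21 had an interaction of −2.96 ± 0.26 (adjusted p = 5.91e-08, edgeR). NIT4 (AT5G22300), which encodes a nitrilase that detoxifies cyanide products, was at 10, 8.03 and 8.1 CPM in Col-0 and 14.3, 14.7 and 14.8 CPM in cdk8-1, against 13.8, 20.5 and 15.3 CPM in jazD and 8.29, 9.23 and 9.26 CPM in jazD cdk8-1. The effects on NIT4 were 0.74 ± 0.12 with JAZ genes intact and −0.89 ± 0.12 in jazD, and jazD cdk8-1 overlapped Col-0.

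NIT4 is shown because its upstream stretch holds a GCC box and a W-box sequence, both in capitals and both read on the opposite strand. The W-box is bound by WRKY factors, and only the sequence TTGACC, on either strand, was counted as one here. The stretch lies at chr5:7378937-7379186 on the plus strand (RefSeq, TAIR10.1).
NIT4: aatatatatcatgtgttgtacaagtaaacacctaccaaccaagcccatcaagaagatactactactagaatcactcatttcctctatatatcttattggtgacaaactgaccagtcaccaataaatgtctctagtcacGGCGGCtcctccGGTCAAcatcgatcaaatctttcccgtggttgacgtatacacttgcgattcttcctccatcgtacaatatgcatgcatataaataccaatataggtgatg

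In the other direction, AT3G57880, annotated as a calcium-dependent lipid-binding protein, was at 19.2, 19.8 and 17.7 CPM in Col-0 and 4.24, 3.05 and 4.13 CPM in cdk8-1, against 16.4, 18.2 and 17.2 CPM in jazD and 20.8, 22.8 and 23 CPM in jazD cdk8-1. It was low in cdk8-1 alone, 4.95-fold below Col-0, and was 1.28-fold higher in jazD cdk8-1 than in jazD, with an interaction of 2.67 ± 0.13 (adjusted p = 6.44e-12, edgeR). MAPR2 (AT2G24940), the gene of a putative steroid-binding membrane protein, met the rule as well (2.71 ± 0.52, and 3.51 without jazD replicate 3), but its libraries were widely scattered, at 28.4, 61.9 and 41 CPM in Col-0 and 27.2, 21.2 and 13.1 CPM in cdk8-1, against 7.46, 6.73 and 24.3 CPM in jazD and 45.5, 19.6 and 49.6 CPM in jazD cdk8-1, and groups overlapped. AT1G23935 (−1.06 ± 0.2 and 0.58 ± 0.21) and AT5G59680, a receptor kinase gene (−0.61 ± 0.19 and 0.75 ± 0.27), also rose in jazD and fell with JAZ genes intact. Those that lie in the chromosome 5 interval, FUM2, AT5G55620, AT5G46220 and AT5G45490, are taken up with it.

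**Figure D4:**
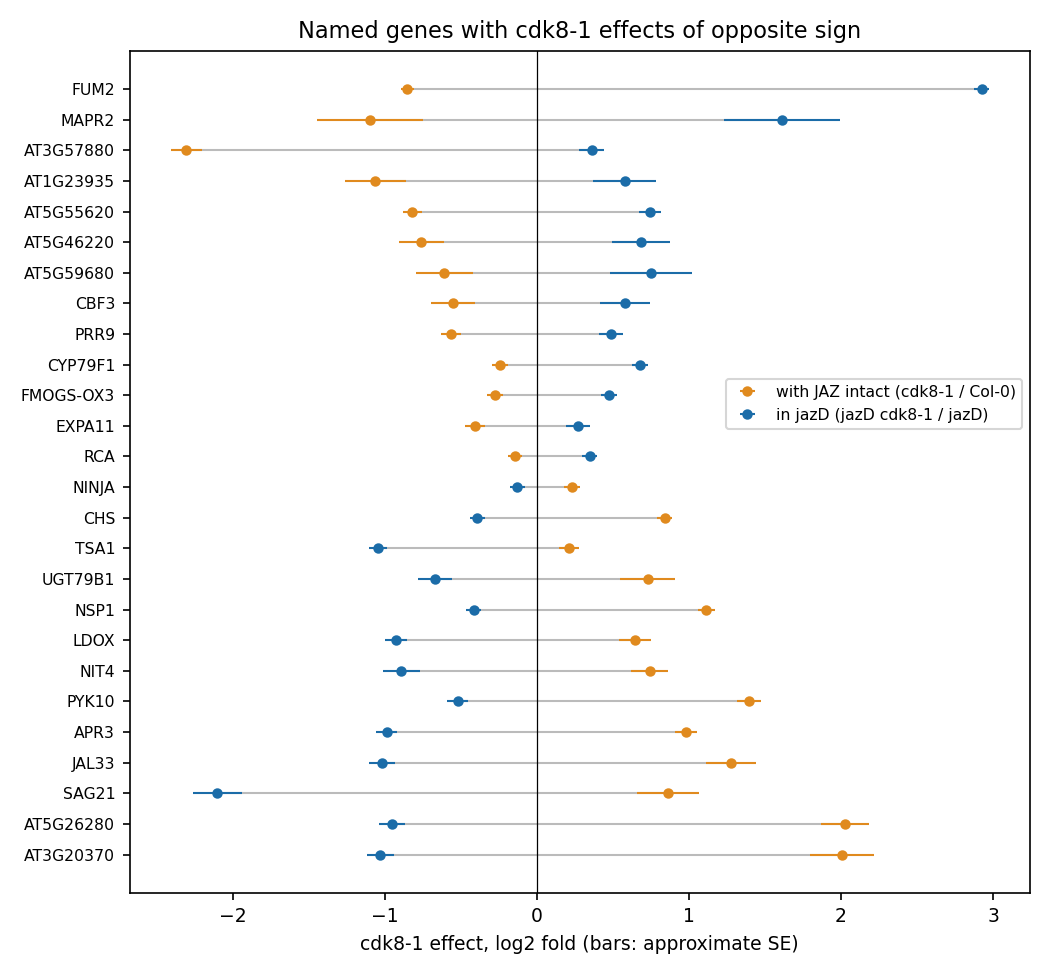
Effects of cdk8-1 on the log2 scale with JAZ genes intact (orange) and in jazD (blue), with approximate standard errors, for the named genes whose effects had opposite signs. AT5G45490, with an effect of 9.19 in jazD, is left out for scale.

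Of 14 tested genes of growth hormones and cell expansion, 7 were called higher (8.16% of all genes were) and none lower, with a median interaction of 0.22. Without jazD cdk8-1 replicate 1, 6 were called higher and the median was 0.133. PRE1 (AT5G39860), which encodes a growth-promoting bHLH protein, was at 17.4, 14.6 and 17.8 CPM in Col-0 and 14.9, 15.7 and 14.5 CPM in cdk8-1, against 5.99, 4.08 and 5.51 CPM in jazD and 14.5, 18.2 and 14.5 CPM in jazD cdk8-1. The jazD libraries were below all others, and the other genotypes overlapped. The interaction of PRE1 was 1.75 ± 0.17 (adjusted p = 1.62e-07, edgeR). EXPA11 (AT1G20190), an expansin gene, was at 46.1, 50.5 and 54.2 CPM in Col-0 and 35.9, 39.6 and 38 CPM in cdk8-1, against 18.4, 17.8 and 16.4 CPM in jazD and 22.4, 21.2 and 20 CPM in jazD cdk8-1 and switched sign, while EXPA8, another expansin gene, fell in both backgrounds (−1.0 and −0.48).

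Of 20 photosynthesis genes, 4 were called higher and none lower (20% against 16.5% of all genes), with a median of 0.16. The count called higher was 14 by TPM with limma, 2 without Col-0 replicate 3, 8 without cdk8-1 replicate 2 and 7 without jazD cdk8-1 replicate 3. With TPM the median over all genes was also above 0, at 0.05 and 0.06 with pseudocounts of 1 and 0.1. RCA (AT2G39730), the Rubisco activase gene, was at 8782, 8796 and 8461 CPM in Col-0 and 7784, 8041 and 7773 CPM in cdk8-1, against 5489, 5068 and 5403 CPM in jazD and 6982, 6808 and 6496 CPM in jazD cdk8-1. Its effects were −0.14 ± 0.05 and 0.35 ± 0.05, the one switch of this list. GAPB, a gene of the Calvin cycle, had an interaction of 0.32 ± 0.06, and PSBQ2, a photosystem II gene, had 0.27 ± 0.07, with a call lost without Col-0 replicate 3 (adjusted p = 0.0602, edgeR).

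Of 11 cuticle and wax genes, 4 were called higher and none lower (36.4% called, against 16.5% of all genes). The count called higher was 2 without Col-0 replicate 1 or 3, jazD replicate 2 or jazD cdk8-1 replicate 1. On CPM without a log 1 was called higher. CER1 (AT1G02205), which encodes an enzyme of alkane formation, was at 130, 93.9 and 115 CPM in Col-0 and 116, 99.3 and 111 CPM in cdk8-1, against 40.7, 40.4 and 40.1 CPM in jazD and 60.8, 57.1 and 56.5 CPM in jazD cdk8-1, with an interaction of 0.58 ± 0.12. CER3, its partner, rose in both backgrounds (0.66 and 0.98), and lies a little beyond the end of the chromosome 5 interval by gene order. CER5, a wax exporter gene, was called at 0.19 ± 0.06 but lost its call in 6 of 12 left-out fits. Of 13 cell cycle genes, 3 were called (23.1%, against 16.5% of all genes). CDKB2;2, a mitotic kinase gene (0.68 ± 0.14), and KNOLLE, a syntaxin gene of cytokinesis (0.45 ± 0.12), were higher, and PCNA1, a gene of the replication clamp, was lower (−0.5 ± 0.1).

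Clock genes split, with 2 called higher and 3 lower of 10 (50% called, against 16.5% of all genes). The count called lower was 1 with TPM and 6 on CPM without a log. PRR9 (AT2G46790), a morning clock gene, was at 38, 38 and 38.3 CPM in Col-0 and 27.6, 24.4 and 25.2 CPM in cdk8-1, against 12.3, 10.7 and 10.5 CPM in jazD and 15.9, 16.4 and 14.7 CPM in jazD cdk8-1. It fell in cdk8-1 (−0.57 ± 0.06) and rose in jazD cdk8-1 (0.49 ± 0.08), with an interaction of 1.05 ± 0.1 (adjusted p = 2.79e-07, edgeR). TOC1 (AT5G61380), an evening clock gene, was at 25.8, 29.8 and 27.8 CPM in Col-0 and 25.5, 23.1 and 25 CPM in cdk8-1, against 57.3, 64.4 and 57.8 CPM in jazD and 34.5, 34.5 and 37.9 CPM in jazD cdk8-1. Here only the fall in jazD was called, and the interaction was −0.57 ± 0.1. GI, also of the evening, had −0.29 ± 0.08. The hour of harvest is not given in the sources used here, and a difference in hour between genotypes and a change of the clock cannot be told apart.

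The PRR9 upstream stretch, at chr2:19232357-19232606 on the plus strand (RefSeq, TAIR10.1), is shown because it holds 2 G-boxes, in capitals, in a gene that switched sign.
PRR9: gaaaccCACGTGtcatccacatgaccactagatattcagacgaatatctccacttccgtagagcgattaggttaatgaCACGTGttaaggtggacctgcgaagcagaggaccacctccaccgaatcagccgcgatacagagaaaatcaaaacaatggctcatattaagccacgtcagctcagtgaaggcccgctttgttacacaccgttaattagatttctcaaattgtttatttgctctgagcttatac

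Stress genes outside the jasmonate lists gave mixed results. Of 11 genes of abscisic acid, cold and dehydration, 2 were higher and 2 lower (36.4% called, against 16.5% of all genes). NCED3 (AT3G14440), whose enzyme limits abscisic acid synthesis, was at 6.28, 9.13 and 11.1 CPM in Col-0 and 4.39, 4.24 and 4.95 CPM in cdk8-1, against 3.65, 3.19 and 3.2 CPM in jazD and 4.73, 4.3 and 4.17 CPM in jazD cdk8-1, with an interaction of 1.35 ± 0.24 and a cdk8-1 effect called only with JAZ genes intact. PP2CA, the gene of a phosphatase of the same pathway, had 0.43 ± 0.1, and COR47, a dehydrin gene, had −0.24 ± 0.07. Of 9 touch and early stress genes, 2 were higher and 2 lower (44.4% called, against 16.5% of all genes). CBF3, a cold regulator gene, switched sign (−0.55 ± 0.15 and 0.58 ± 0.16), and ZAT10, a zinc finger gene, had −1.38 ± 0.31. TCH4, a cell wall enzyme gene, had −0.81 ± 0.24, a call lost in 6 of 12 left-out fits. It too lies a little beyond the end of the chromosome 5 interval by gene order.

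Salicylate defence often opposes jasmonate. Of 18 genes of this list, the cdk8-1 effect was called lower for 10 with JAZ genes intact and for 12 in jazD, and higher for none. Of all genes tested, 13.8% and 19% were called lower in the respective backgrounds. The interaction was called for 2 of the 18 (11.1%, against 16.5% of all genes), both lower, with a median of −0.156. Without jazD replicate 2, 2 were called higher and 1 lower and the median became 0.027. It was −0.0356 without cdk8-1 replicate 3. PR5 (AT1G75040), a thaumatin-like gene, was at 44.2, 32.4 and 25 CPM in Col-0 and 31, 29.1 and 39.1 CPM in cdk8-1, against 111, 168 and 112 CPM in jazD and 30, 19.5 and 36.6 CPM in jazD cdk8-1, high in jazD alone (−2.15 ± 0.28, adjusted p = 1.2e-05, edgeR). CBP60g, a regulator gene, was called at −0.49 ± 0.17 and lost its call in 8 of 12 left-out fits. None of 3 camalexin genes was called, with interactions between −1.79 and −0.79, and none of 3 heat shock genes or 8 Mediator genes was called.

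Of 15 carbon starvation and senescence genes, cdk8-1 lowered 8 with JAZ genes intact and 10 in jazD, with median effects of −1.02 and −0.98 on the log2 scale, where 13.8% and 19% of all genes tested were called lower. The interaction was called for 2 of the 15 (13.3%, against 16.5% of all genes). BCAT2 (AT1G10070), a gene of branched-chain amino acid breakdown, was at 2.54, 1.96 and 1.75 CPM in Col-0 and 0.848, 0.62 and 1.39 CPM in cdk8-1, against 31.6, 43.3 and 30.9 CPM in jazD and 2.56, 1.05 and 3.06 CPM in jazD cdk8-1 (−2.89 ± 0.49). ASN1, an asparagine synthetase gene induced in the dark, was higher on the log2 scale (0.71 ± 0.15). Without a log its interaction was −0.24 of its mean CPM (adjusted p = 0.195, limma). Flowering time genes gave 2 higher and 2 lower of 8 (50% called, against 16.5% of all genes). MAF5, a relative of the repressor FLC, had effects of 2.04 ± 0.2 and 0.52 ± 0.15, and SPL3, a gene that promotes flowering, had an interaction of 0.69 ± 0.18. The flowering repressor gene SVP had 0.31 ± 0.07. The floral organ gene AG (AT4G18960) was at 0.623, 0.703 and 0.8 CPM in Col-0 and 0.499, 0.31 and 0.24 CPM in cdk8-1, against 0.109, 0.246 and 0.415 CPM in jazD and 0.946, 0.478 and 0.556 CPM in jazD cdk8-1, and was called at 2.35 ± 0.62 (adjusted p = 0.012, edgeR). The 8 floral markers, AG among them, summed to 1.85 to 2.51 CPM in Col-0, 0.865 to 1.6 in cdk8-1, 0.688 to 0.888 in jazD and 0.973 to 1.78 in the line with both losses, and their part in the result was not tested. Among 8 iron genes FRO3 (−0.3 ± 0.1) was called (12.5%, against 16.5% of all genes). Among 4 phosphate genes SQD2 (0.23 ± 0.07) and PHT1;4 (−1.04 ± 0.29) were called (50%). The calls of FRO3 and SQD2 were each lost in 8 of 12 left-out fits, and that of PHT1;4 was lost without jazD replicate 3 (adjusted p = 0.0516, edgeR).

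Among genes whose log2 CPM averaged at least 1 outside the chromosome 5 interval, the largest positive interactions reached 2.71 (MAPR2), smaller in size than the 10 largest negative ones. AT4G01390, TRAF-like, was at 7.47, 7.48 and 6.9 CPM in Col-0 and 0.2, 0.0517 and 0.144 CPM in cdk8-1, against 9.53, 8.55 and 9.42 CPM in jazD and 0.834, 1 and 0.602 CPM in jazD cdk8-1. The gene fell 52.3-fold and 11.2-fold in the respective backgrounds, with an interaction of 2.22 ± 0.42 on the log2 scale. Without a log it was −0.28 of the gene's mean CPM (adjusted p = 0.0616, limma). AT5G35935, a transposable element gene, rose in both backgrounds (1.67 and 3.79), with an interaction of 2.13 ± 0.27. This interaction turned to −0.09 with TPM and a pseudocount of 1 (adjusted p = 0.723, limma). Without a log it was −0.78 of the gene's mean CPM (adjusted p = 0.000482, limma). GolS2 (AT1G56600), a galactinol synthase gene linked to drought, was at 5.5, 2.71 and 4.1 CPM in Col-0 and 1.2, 1.08 and 1.1 CPM in cdk8-1, against 1.25, 0.983 and 1.07 CPM in jazD and 1.67, 1.67 and 0.926 CPM in jazD cdk8-1 (2.21 ± 0.4). XPL1 (AT3G18000), a gene of phosphocholine synthesis, had scattered libraries, at 12.3, 12.5 and 12.4 CPM in Col-0 and 16.7, 8.22 and 8.02 CPM in cdk8-1, against 5.28, 4.96 and 5.27 CPM in jazD and 6.62, 18.6 and 30.8 CPM in jazD cdk8-1 (2.05 ± 0.5). AT5G57890, a glutamine amidotransferase gene (2.41 ± 0.15), and GDU3, whose product promotes amino acid export (1.61 ± 0.24), lie a little beyond the end of the interval by gene order.

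Interaction calls were denser in a run of loci on chromosome 5, from AT5G44490 to AT5G56910. This run had been noticed earlier in these data for levels that differ in a block between jazD and jazD cdk8-1. That difference is part of the interaction, so the denser calls there are not independent of how the run was chosen. Of 926 tested genes there, 268 (28.9%) were called, against 15.9% elsewhere, and 173 were higher and 95 lower. Of 76 that were called with at least 2-fold, the cdk8-1 effect with JAZ genes intact was below 1.5-fold for 52, and jazD cdk8-1 was within 2-fold of cdk8-1 for 65. Those 65 genes share the jazD cdk8-1 and cdk8-1 libraries with the interaction. The defensin genes PDF1.2c and PDF1.2a precede its first locus.

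AT5G45490, a gene for a predicted nucleoside triphosphate hydrolase, was at 68.5, 67.7 and 62.1 CPM in Col-0 and 40.5, 45.6 and 41.7 CPM in cdk8-1, against 0, 0 and 0.296 CPM in jazD and 55.5, 55.1 and 58.4 CPM in jazD cdk8-1. It was close to absent in jazD alone, and its interaction was 9.83 ± 0.24 (adjusted p = 3.05e-17, edgeR). AT5G49440, of unknown function, behaved alike at 80.2, 83.2 and 82.7 CPM in Col-0 and 120, 129 and 115 CPM in cdk8-1, against 0, 0 and 0.355 CPM in jazD and 106, 92.4 and 92.3 CPM in jazD cdk8-1 (9.16 ± 0.25). Without jazD replicate 3 the fitted interactions were 13.75 for AT5G45490 and 13.33 for AT5G49440. AT5G50565, also of unknown function, had 0 counts in jazD and 484 in jazD cdk8-1, so it was at least 148-fold higher there, with 3 counts over the group taken as the floor.

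FUM2 (AT5G50950), which encodes the cytosolic fumarase, was at 249, 234 and 233 CPM in Col-0 and 133, 131 and 132 CPM in cdk8-1, against 33.9, 32.4 and 35.4 CPM in jazD and 252, 259 and 261 CPM in jazD cdk8-1. FUM2 fell 1.81-fold in cdk8-1 and was 7.59-fold higher in jazD cdk8-1 than in jazD, a level slightly above that in Col-0. Its interaction was 3.78 ± 0.06 (adjusted p = 5.58e-20, edgeR). AT5G55620 (−0.82 ± 0.06 and 0.74 ± 0.07) and AT5G46220 (−0.76 ± 0.15 and 0.69 ± 0.19) had effects of opposite sign too. The largest negative interactions of the interval were those of AT5G45720, an ATPase gene (−2.23 ± 0.31), WR3, a gene of nitrate transport (−1.88 ± 0.28), and UGT79B1 (−1.4 ± 0.21). With the interval left out, 2877 interaction genes and 289 switches were called. In a block of neighbouring genes, an effect of cdk8-1 and a difference between the lines in the chromosome segment cannot be told apart.

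**Figure D5:**
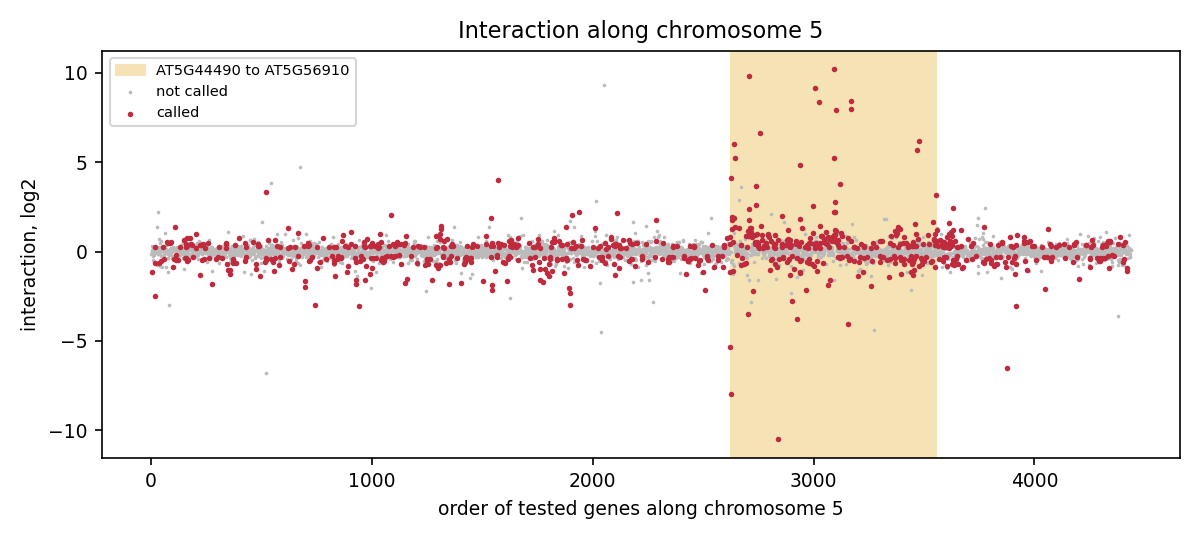
Interaction on the log2 scale for tested genes in their order along chromosome 5, with called genes in red and the loci from AT5G44490 to AT5G56910 shaded. Both AT5G45490 and AT5G49440 lie in the shaded run, where 28.9% of genes were called against 15.9% elsewhere.

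Upstream stretches of 250 bases could be read for 18983 of the 19059 genes tested (RefSeq, TAIR10.1), and 4 motifs were counted on both strands. The GCC box (GCCGCC) was found in 1.96% of all stretches, in 3.58% of those of genes called lower and in 1.16% of those of genes called higher. The G-box (CACGTG) was found in 7.33% of all, in 7.78% of genes called lower, in 7.47% of genes called higher and in 14.2% of the 169 switches that were higher in jazD, against 6.67% of the switches that were lower. Among genes called with at least a 2-fold interaction, it was found in 11.3% of the 292 lower and 4.97% of the 161 higher. The W-box sequence TTGACC was found in 11.9% of all, 12% of those called lower and 9.73% of those called higher. The evening element (AAATATCT) was found in 5.09% of all, 6.65% of those called lower and 5.15% of those called higher. These shares are descriptions, and a match in a stretch is not a bound site.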

How the data were processed

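Whole rosettes of 4 genotypes were sequenced as mRNA, with 3 libraries each and 12 in all. Per the submitters' processing notes, reads were assigned to genes of TAIR10 with RSEM 1.2.25. The authors deposited expected counts, which are estimated and need not be whole (96.58% were), and TPM values. TPM divides by transcript length and keeps no depth, so the expected counts, rounded to whole numbers, were the basis of the tests. RSEM divides reads shared by near-identical genes, so values of single PDF and AOC copies are uncertain. Whether strand was used in counting is not given in the sources used here.

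Genes were filtered with filterByExpr and scaled by TMM, and edgeR 4.0.16 (R 4.3.3) fitted 1 mean per genotype with its quasi-likelihood test. All contrasts came from this fit, with Benjamini-Hochberg adjustment over 19059 genes at 0.05. The fit had 8 residual degrees of freedom and a common biological coefficient of variation of 5.07%. Levels are CPM after TMM scaling, and values after ± are approximate standard errors. No statement says that pools of a genotype were grown apart, so p-values measure the spread between pools, which may be partly technical. No replicates were identical within sampling noise.

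A sign switch is a called interaction whose 2 cdk8-1 effects were both called with opposite signs. Named genes were the 10 largest interactions of each sign outside the chromosome 5 interval, the 3 of each sign inside it, 6 sign switches of each direction and up to 3 called members of each list, and CDK8. All but the list members and CDK8 had an average log2 CPM of at least 1. Other list members named were chosen after their values were seen. The contrast, the interval and the gene lists were chosen with earlier results of these data known, so they are not independent of the data. Of the list genes, 20 were left out because the files and the reference did not give that name to the locus. Alternatives used DESeq2 1.42.0, other scalings and filters, a test against 1.5-fold, a replicate block, and leaving out each library. Others used limma 3.58.1 on log2 TPM without TMM scaling (pseudocounts of 1 and 0.1), or on CPM without a log. That CPM was divided by each gene's mean over all libraries, so its interactions are in units of that mean. The fitting procedure was tested on simulated data. Upstream stretches were matched by locus to RefSeq sequences of TAIR10.1, and 32835 of 33323 loci were matched to the reference table.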

Additional observations from a re-analysis of the deposited data

Results flagged for a closer look

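Genes are listed here because the effect of cdk8-1 differed between the 2 backgrounds by the interaction test and pointed in opposite directions. There were 321 such genes. All values in the next sentences are interactions on the log2 scale, each called with edgeR.

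Among genes that cdk8-1 raised with JAZ genes intact and lowered in jazD, those of glucosinolate breakdown and sulfur use were PYK10 (−1.91), NSP1 (−1.53) and APR3 (−1.97). Flavonoid genes were CHS (−1.23), LDOX (−1.57) and UGT79B1 (−1.40). Others were the TRAF-like genes AT3G20370 (−3.04) and AT5G26280 (−2.98), the lectin gene JAL33 (−2.30), the senescence gene SAG21 (−2.96), the nitrilase gene NIT4 (−1.63), the tryptophan synthase gene TSA1 (−1.26) and the adaptor gene NINJA (−0.36).

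Among genes that cdk8-1 lowered with JAZ genes intact and raised in jazD, those of aliphatic glucosinolate synthesis were CYP79F1 (0.92) and FMOGS-OX3 (0.75). Others were the expansin gene EXPA11 (0.68), the Rubisco activase gene RCA (0.49), the clock gene PRR9 (1.05), the cold regulator gene CBF3 (1.13), AT3G57880 (2.67), AT1G23935 (1.64) and AT5G59680 (1.36). MAPR2 (2.71) belongs here too, with libraries scattered enough that groups overlapped. In the chromosome 5 interval these were AT5G45490 (9.83), FUM2 (3.78), AT5G55620 (1.56) and AT5G46220 (1.45).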

How the results depend on the processing

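The counts stayed within 1.5 times the reported ones under other scalings, filters, DESeq2 and TPM with a pseudocount of 1, and without the chromosome 5 interval. DESeq2 called 2533 interaction genes, of which 2500 were among the 3154. Membership of the sign switches varied more than these totals show. Of the 321 reported, 232 were also switches with DESeq2 and 185 on CPM without a log. TPM gave 294 switches with a pseudocount of 1 and 292 with 0.1, of which 129 and 125 were among the 321. With TPM and a pseudocount of 0.1, 1056 genes were called lower. On CPM without a log there were 206 sign switches, 79 of them lower in jazD. A test against 1.5-fold rather than 0 called 264 interaction genes (104 higher, 160 lower), 6 switches (1 higher and 5 lower in jazD), and a cdk8-1 effect for 470 genes with JAZ genes intact and 1083 in jazD. It asks for a larger difference by construction.

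Leaving out 1 library at a time gave between 2476 and 3036 interaction genes (1182 to 1499 higher, 1273 to 1598 lower) and between 230 and 305 switches (120 to 157 higher, 109 to 154 lower in jazD). The cdk8-1 effect was called for 4022 to 4956 genes with JAZ genes intact and for 5702 to 7010 in jazD.

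Among named genes, 6 values changed sign, and the cause was not tested. AACT1 ran from −7.22 to 0.32 when single libraries were left out, with 0.32 without cdk8-1 replicate 3. In that fit both cdk8-1 libraries left had 0 CPM for AACT1, so the value is not a reliable estimate. AT5G35935 was −0.0912 with TPM and a pseudocount of 1. On CPM without a log, in units of each gene's mean CPM, it was −0.78. On that scale ILL6 was −0.0663, ASN1 −0.24 and AT4G01390 −0.28. The other values were 2165 with the same call and 115 with the call lost.

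Replicate numbers did not pair the libraries. Of 18 same-numbered pairs, 0 had deviations correlated above 0.1 (r from −0.0583 to 0.0508), and 0 libraries correlated best with their own number. With a replicate block, 3021 interaction genes (1482 higher, 1539 lower) and 306 switches (162 and 144) were called, with cdk8-1 effects for 4678 genes with JAZ genes intact and 6640 in jazD, and CBP60g lost its call (adjusted p = 0.0655, edgeR).

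The limits are few pools per genotype, low counts in Col-0 and cdk8-1 for the genes with the largest negative interactions, and reads shared among gene copies. A call at this depth can rest on small differences, since the median called interaction was 0.45.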
